A study of Homo sapiens with 12 samples.

Results

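Cells of MDA-MB-468, an established line of basal-like triple-negative breast cancer, were given the AKT inhibitor ipatasertib with or without the EZH2 inhibitor tazemetostat, and the libraries that differ by tazemetostat were compared. The comparison takes 3 libraries of the combination against 3 of ipatasertib, 6 of the 12 libraries of the series, and uses all 23228 genes of the count tables. Ipatasertib libraries came from cells kept in the solvent DMSO from day -5 and given 5 µM ipatasertib on day 0. Combination libraries came from cells kept in 5 µM tazemetostat over the same days and given both drugs at 5 µM on day 0. In both groups the day 0 medium held 2% serum and RNA was collected at 24 h, so that the groups differ in 5 days of pretreatment as well as in tazemetostat during the last day. The other 6 libraries, 3 with DMSO alone and 3 with 5 µM tazemetostat alone, served to ask whether the effect of tazemetostat differed when ipatasertib was absent. Each group has libraries lettered A, B and C. Whether a letter stands for its own culture is not stated, and the p-values therefore measure a spread that can be technical.

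EZH2 is the catalytic subunit of Polycomb repressive complex 2 (PRC2), which methylates lysine 27 of histone H3 and keeps developmental and lineage genes silent. Tazemetostat inhibits the enzyme, and silent PRC2 targets are the genes classically regained when the mark is lost. AKT, the kinase downstream of PI3K, keeps FOXO transcription factors out of the nucleus and promotes growth. In the mammary gland EZH2 is known to restrain differentiation. Regression of the gland after lactation, called involution, is driven by LIF, oncostatin M and STAT3, and ends in cell death through BH3-only proteins such as BMF.

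Each library held between 12981622 and 25468348 counts in genes, and the combination libraries were the shallower, with at most 17948209. Levels are given as CPM, counts scaled to a common library total with TMM factors, so that a single library's 3 counts, the limit a count of 0 allows, stand for 0.118 to 0.227 CPM. A value after ± is the SD over 3 libraries unless marked SE. In both groups the A library lay farther from the others than they lay from each other. Chi-square values per degree of freedom were 3.53 (ipatasertib) and 3.61 (combination) for B against C, and 8.44 to 9.71 for pairs with A. The share of counted reads outside genes was 36.8% ± 0.637 with ipatasertib and 38.1% ± 1.38 with the combination (SD, n = 3), a difference of 1.34 percentage points with an exact two-sided permutation p of 0.3, where 0.1 is the smallest value possible. The basal keratin KRT5 stood at 1171 CPM and the estrogen receptor gene ESR1 at 1.56 CPM with ipatasertib. Of the markers of other cell types, 3 of 4 tested fibroblast genes rose. Of 4 tested endothelial genes 2 rose, CDH5 (0.924 to 3.79 CPM) and ESAM (2.46 to 6.06 CPM), and KDR fell (29.3 to 18.6 CPM). The 9 endothelial markers summed to 32.4 to 34.3 CPM with ipatasertib and 27.3 to 30.2 with the combination. Of the fibroblast markers, PDGFRA went from 8.69 to 22.6 CPM and LUM from no count to 1.82 CPM. In bulk RNA a change in the number of cells of a kind and a change of RNA per cell cannot be told apart.

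Adding tazemetostat to ipatasertib changed 6680 of 14571 tested genes, 45.8% of them, by edgeR's quasi-likelihood test at a Benjamini-Hochberg adjusted p under 0.05. Rises numbered 3419 (23.5%) and falls 3261 (22.4%), and the median change over all genes tested was -0.01 on the log2 scale. The CPM of the 3 and 3 libraries did not overlap in 3707 tested genes that were higher in the combination and 3578 that were lower. Large changes went mostly up: 1231 genes (8.45%) rose by a log2 fold change of 1 or more, and 108 (0.741%) fell by as much. Of the 1231 genes that rose at least 2-fold, 762 (61.9%) were under 1 CPM with ipatasertib and 116 had no count there. Those 116 entered the test only through other groups and so had to differ, and others of the 762 can have passed the filter on low counts in the same way, so that part of the excess of rises at low level is built in. Among the 2446 genes above 100 CPM with ipatasertib 343 rose and 920 fell, and only 9 rose and 11 fell at least 2-fold. Among the 7265 genes of 10 to 100 CPM, 1413 rose and 1964 fell. With at least 50 counts asked of 3 libraries, 643 genes rose and 60 fell at least 2-fold. Without the A library of every group 8040 genes changed.

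**Figure D1:**
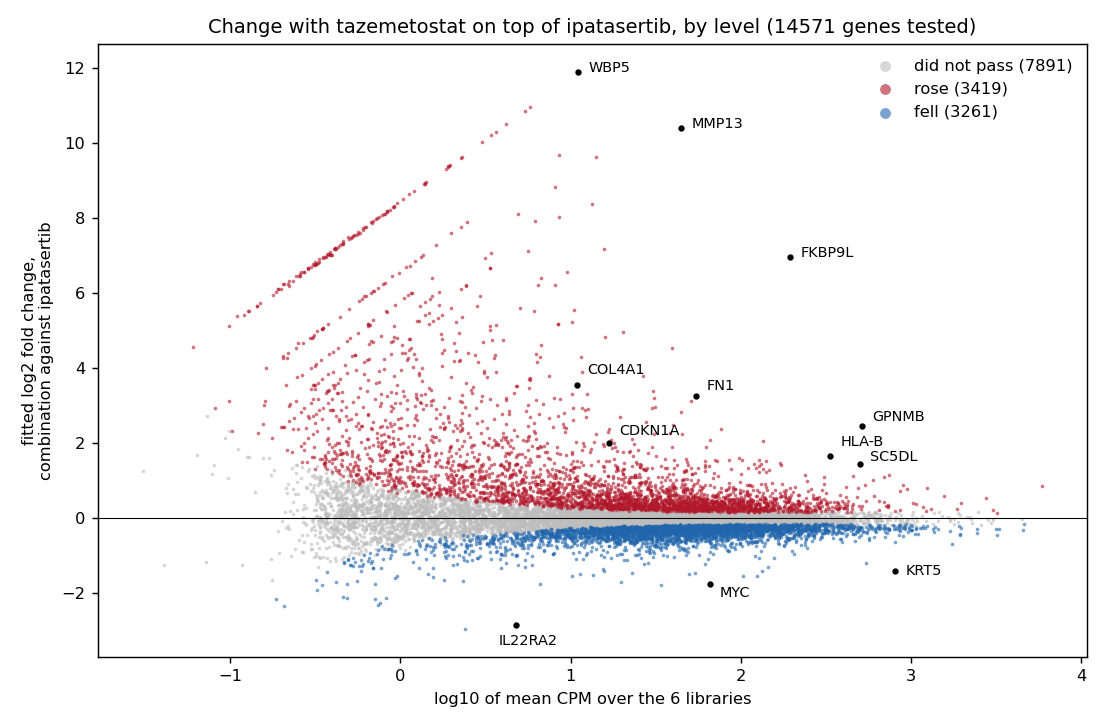
Fitted log2 fold change of the combination against ipatasertib (vertical axis) against the log10 mean CPM over the 6 libraries (horizontal axis), 1 point per tested gene; red genes rose (3419), blue genes fell (3261), grey genes did not pass. Large rises lie mostly at low level, where the slanted rows are genes with 0 or few counts with ipatasertib whose fitted values are not bounds, and KRT5 and MYC lie among the falls at higher level.

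The largest rises were in genes that the ipatasertib cells did not detectably express. WBP5, today called TCEAL9, stood at 22.2, 23.1 and 20.8 CPM in the 3 combination libraries and had no count in the ipatasertib libraries. Measured from a group floor of 3 counts, WBP5 was at least 493-fold higher. On that floor the teneurin gene ODZ3 (11.6 ± 1.23 CPM, SD, n = 3) was at least 259-fold higher. The G-protein regulator RGS7 (10.8 ± 1.34 CPM) was at least 242-fold higher, and the gap junction gene GJA1 (8.38 ± 0.93 CPM) at least 187-fold. The diamine oxidase gene ABP1, the proteoglycan gene SPOCK1, the angiotensin receptor gene AGTR1 and the versican gene VCAN followed, at least 162-, 151-, 135- and 102-fold higher. MMP13, a collagenase, had 4 counts over the ipatasertib libraries and 4090 over the combination libraries. Its level was 0.0437, 0.106 and 0.0394 CPM in the ipatasertib libraries A, B and C and 86.2, 91.9 and 89.6 CPM in the combination libraries. For genes with 1 or 2 counts over the ipatasertib libraries the ratio carries a wide counting interval: 1119 for the transcription factor gene MECOM (95% interval 200.3 to 44261), 944 for the neuronal adhesion gene CNTNAP2 (261 to 7800) and 544 for FAM171A1 (149.9 to 4497). SHISA2, an inhibitor of Wnt and FGF receptor maturation, went from 5 counts to 1218, or from 0.0746 to 26.5 ± 0.805 CPM. Not all silent genes reached such levels: SOX2, the pluripotency factor, had no count with ipatasertib and 1.53, 0.454 and 0.968 CPM in the combination libraries, at least 22-fold higher but below its 9.06 ± 1.18 CPM with tazemetostat alone.

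Start sites of these genes differ in base composition, which is shown because PRC2 is known to favour starts rich in CpG dinucleotides. For 8 of the 13 genes named as largest rises or as most abundant without an ipatasertib count, 13 starts were available (RefSeq, GRCh38.p14). The set of starts used does not cover every tested gene, so the remaining genes can have starts that were not seen. The 250 bases before a start held 1 to 38 CpG, with a median of 14. GJA1 had the fewest and FAM171A1, among genes with 1 listed start, the most, and both windows are printed with each CpG in capitals. GJA1 has 1 CpG and 48.0% G and C on the forward strand at chr6:121435396-121435645, and FAM171A1 has 32 CpG and 78.4% G and C on the reverse strand at chr10:15371290-15371539.
GJA1: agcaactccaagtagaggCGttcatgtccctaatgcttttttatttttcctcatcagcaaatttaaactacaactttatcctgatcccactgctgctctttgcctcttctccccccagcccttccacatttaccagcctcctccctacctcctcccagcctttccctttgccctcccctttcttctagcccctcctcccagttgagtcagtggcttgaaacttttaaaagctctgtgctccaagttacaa
FAM171A1: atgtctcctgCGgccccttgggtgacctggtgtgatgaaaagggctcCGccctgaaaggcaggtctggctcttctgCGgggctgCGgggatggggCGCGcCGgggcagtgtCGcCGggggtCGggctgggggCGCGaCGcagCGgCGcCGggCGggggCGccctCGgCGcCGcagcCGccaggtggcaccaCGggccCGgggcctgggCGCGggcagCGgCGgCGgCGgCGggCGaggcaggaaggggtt
Both genes were silent or nearly so with ipatasertib and rose to 7.53, 9.38 and 8.23 CPM and to 16.3, 16.3 and 16 CPM in the combination libraries, GJA1 from a CpG-poor start and FAM171A1 from a CpG-rich one. The starts of RGS7, at 34, 38, 34 and 2 CpG, differed as widely within 1 gene. The letters describe these windows only, and no mark was measured.

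Part of the genes that present antigen rose. Of 20 tested MHC class I genes 11 rose (55%) and 0 fell by edgeR's test, against 23.5% and 22.4% of all tested genes. Their median log2 fold change was 0.36 against -0.01 over all genes. A single member fell at an unadjusted p under 0.05 and 1 fell by DESeq2; 1 fell without combination or ipatasertib library A, and 2 without the A libraries. HLA-B, a class I heavy chain, was at 146, 162 and 173 CPM in ipatasertib libraries A, B and C and at 549, 484 and 492 CPM in the combination libraries. The groups did not overlap, and the log2 fold change was 1.66 ± 0.0699 (SE, adjusted p = 1.96e-14 by edgeR). HLA-F (1.17), HLA-C (0.89) and the light chain gene B2M (0.78) rose by smaller log2 fold changes, B2M from 691 ± 45.4 to 1190.1 ± 68.5 CPM. Class II genes, which normally belong to professional antigen-presenting cells, stayed at low levels. All 9 tested class II genes of a list of 14 rose, with a median log2 fold change of 2.58. A member silent with ipatasertib passed the filter only where tazemetostat raised it, so the count is a description. Of 5 tested leukocyte markers 3 rose and 1 fell: CSF1R from 4.8 ± 0.591 to 19 ± 1.25 CPM, PTPRC from 6 to 27 counts and CD68 (0.45, a call that 4 of 14 alternatives did not give) rose, and CD14 fell (-0.52). The 12 markers summed to 82.9 to 105.8 CPM per library with ipatasertib and 81.5 to 92.2 CPM with the combination, and the part of such cells in the class II result was not tested. HLA-DQB1 had no count with ipatasertib and 1.42, 1.44 and 1.8 CPM with the combination, and HLA-DMA went from 2.82 ± 0.518 to 4.56 ± 0.133 CPM. CIITA, the class II master regulator, had too few counts to be tested: 2 over the ipatasertib and 13 over the combination libraries, which makes it 9.47 times higher, with bounds of 2.14 and 86.5 from the 95% counting interval.

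Interferon-stimulated genes moved up in part: 20 of 41 tested rose (48.8%) and 4 fell (9.76%), against 23.5% and 22.4% of all tested genes. Their median log2 fold change was 0.22. IFIT3, an antiviral RNA-binding protein gene, was at 14, 14.4 and 14.1 CPM with ipatasertib and at 36, 39.1 and 38.3 CPM with the combination (log2 fold change 1.41 ± 0.0939, SE, adjusted p = 4.81e-11 by edgeR). IFIT2 (1.38), IFIT1 (1.22) and the guanylate-binding protein gene GBP2 (0.83) rose as well. Of 19 tested NF-kB, chemokine and cytokine genes 10 rose (52.6%) and 3 fell (15.8%). CSF1, the macrophage growth factor, rose from 9.04 ± 0.74 to 26.7 ± 2.51 CPM. CCL2, a monocyte chemokine, went from 5 counts to 133, reaching 2.86 ± 0.324 CPM. ICAM1, a leukocyte adhesion receptor gene (0.77), and the cytokine gene TNFSF15 (0.91) rose by smaller log2 fold changes.

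**Figure D2:**
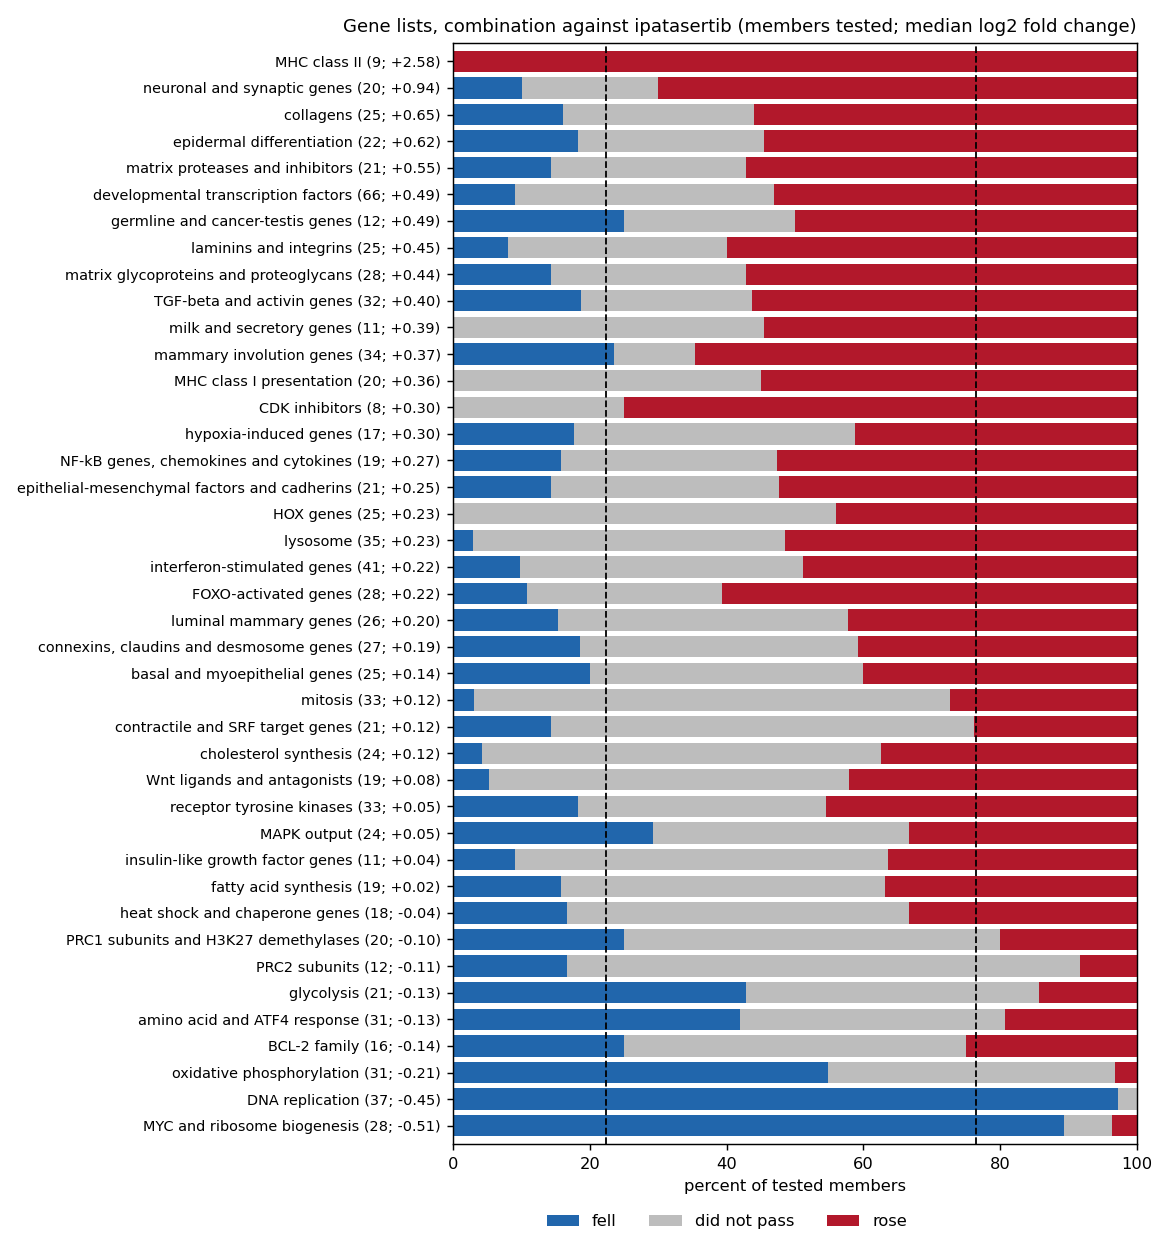
Share of tested members of each gene list that fell (blue), did not pass (grey) or rose (red) in the combination against ipatasertib, for lists with at least 8 tested members, ordered by the median log2 fold change given in brackets after the number tested. Dashed lines mark the shares over all tested genes (22.4% fell, left; 23.5% rose, right); DNA replication and ribosome biogenesis are nearly all blue.

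Matrix genes rose in many families, where 23.5% of all tested genes rose and 22.4% fell. Of 25 tested collagens 14 rose and 4 fell (median log2 fold change 0.65), and of 28 matrix glycoproteins and proteoglycans 16 rose and 4 fell (median 0.44). COL4A1, a basement membrane collagen, was at 1.88, 1.44 and 1.77 CPM with ipatasertib and 21.5, 19.5 and 19.3 CPM with the combination, without overlap (log2 fold change 3.55 ± 0.142, SE, adjusted p = 8.42e-15 by edgeR). Its partner chain COL4A2 rose from 3.26 ± 0.491 to 21.3 ± 3.08 CPM, and COL12A1, a fibril-associated collagen, from 5.26 ± 0.683 to 55.8 ± 2.02 CPM. Fibronectin, encoded by FN1, stood at 11.1, 9.84 and 10.1 CPM with ipatasertib and at 101, 96.2 and 99.4 CPM with the combination, a 9.57-fold higher mean (log2 fold change 3.26 ± 0.078, SE, adjusted p = 9.71e-19 by edgeR). NOV, a secreted CCN protein, rose from 10.4 ± 0.269 to 90.9 ± 3.21 CPM, and TGFBI, a matrix adaptor induced by TGF-beta, from 7.22 ± 0.875 to 55.7 ± 4.01 CPM. The collagens that fell numbered 2 without combination library C. The summed level of 10 fibroblast markers moved with the matrix genes, from 14.2 to 16.3 CPM per library with ipatasertib to between 33.7 and 36.8 CPM with the combination. Of these markers COL1A1 rose, by log2 fold changes of 0.596 to 0.746 under the alternatives, as did PDGFRA and LUM. COL1A2 had 3 and 2 counts and DCN 0 and 6 over the 3 libraries of the groups, and the part of such cells in the result was not tested.

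The enzymes and receptors of the matrix moved with it. For comparison, 23.5% of all tested genes rose and 22.4% fell. Of 25 tested laminins and integrins 15 rose and 2 fell; the laminin chain gene LAMB3 rose (log2 fold change 0.82) with the collagen receptor gene ITGA2 (1.24), whereas LAMA4 fell (-0.91). Matrix proteases and their inhibitors gave 12 higher and 3 lower of 21, among them the protease inhibitor gene SERPINE2 (2.04) and TIMP2 (0.94), which rose from 105 ± 3.13 to 201 ± 8.93 CPM. MMP3, a stromelysin, had no count with ipatasertib and 3.49, 4.31 and 3.32 CPM with the combination. Epithelial-mesenchymal factors and cadherins gave 11 higher and 3 lower of 21. Vimentin, encoded by VIM, rose from 16.7 ± 0.95 to 62.2 ± 5.37 CPM, TWIST1 went from 1 count to 224 and the N-cadherin gene CDH2 from 3 counts to 141. TGF-beta and activin genes gave 18 higher and 6 lower of 32, with the activin subunit INHBA rising from 13.1 ± 0.104 to 43.6 ± 5.11 CPM and its antagonist FST from 1.53 ± 0.339 to 6.8 ± 0.611 CPM. Of 19 Wnt ligands and antagonists 8 rose and 1 fell. WNT5A (1.78) and the antagonist gene DKK1 (1.45) were among those that rose. Junction genes gave 11 higher (40.7%) and 5 lower (18.5%) of 27. The connexin gene GJB2 and the claudin gene CLDN1 rose (2.70 and 0.91), and the connexin gene GJA5 fell (-0.83). Counts of falls were small and moved with single libraries: 3 junction genes fell without combination library B or C or ipatasertib library B or C, 3 TGF-beta genes without combination library B or ipatasertib library A or C, and 1 laminin or integrin gene without combination library B. The Wnt genes that fell numbered 0 without combination library B or C or ipatasertib library B or C, and 2 without combination library A or the A libraries.

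**Figure D3:**
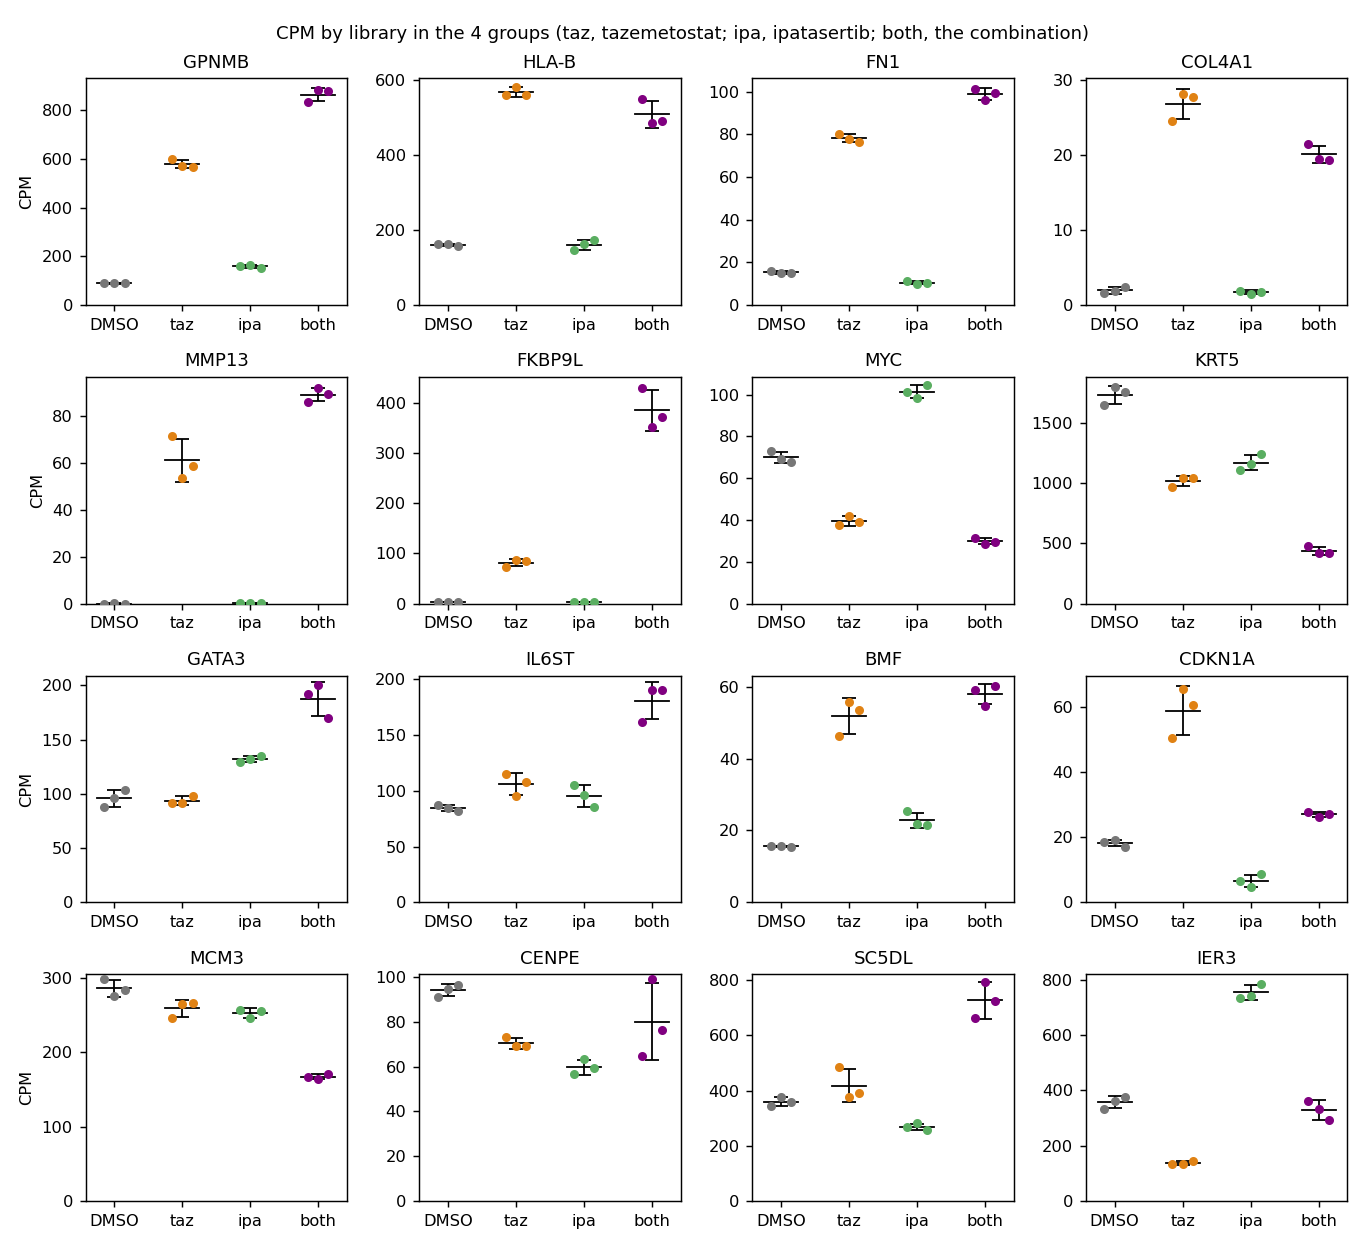
CPM of 16 genes in every library (points) of the groups DMSO, tazemetostat (taz), ipatasertib (ipa) and combination (both), with the mean as a bar and the SD as whiskers (n = 3); each panel has its own linear axis from 0. MMP13 and FKBP9L are near 0 without tazemetostat, MYC and IER3 are highest with ipatasertib, and GATA3 and SC5DL are highest with both drugs.

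Many developmental regulators, classic Polycomb targets, had too few counts to be tested. Of 113 transcription factor genes on the list, 66 passed the count filter; 35 rose and 6 fell, with a median log2 fold change of 0.49. A member nearly silent with ipatasertib passed the filter only through groups where it was higher, so these counts are a description, as are those of the HOX, neuronal and germline lists. Over all tested genes 23.5% rose and 22.4% fell. With at least 50 counts asked of 3 libraries, 23 developmental factors rose. TBX3, a factor of limb and mammary development, was at 0.0874, 0.266 and 0.158 CPM with ipatasertib and 13.2, 13.6 and 11.3 CPM with the combination. The homeobox genes MEIS1 and EN2 rose from 4.07 ± 0.11 to 13.3 ± 0.245 CPM and from 0.106 ± 0.0916 to 4.49 ± 0.466 CPM, and the nuclear receptor gene NR2F2 from 1.25 ± 0.16 to 7.08 ± 0.479 CPM. Of 25 tested HOX genes, which pattern the body axis, 11 rose, HOXA11 (1.37), HOXA10 (0.87) and HOXB7 (0.63) among them, and 0 fell by edgeR, by DESeq2 or at an unadjusted p under 0.05; 2 fell without the A libraries. Neuronal and synaptic genes gave 14 higher and 2 lower of 20 tested, of 36 listed, with a median of 0.94. The neural adhesion genes NCAM1 and L1CAM rose from 90.4 ± 3.86 to 248 ± 1.77 CPM and from 3 ± 0.651 to 22.1 ± 4.27 CPM. Germline and cancer-testis genes split, with 6 higher and 3 lower of 12; MAGEA1 rose (1.68) and MAGEA4 fell (-0.67). A single neuronal gene fell without combination library B or C or ipatasertib library A or B, and a single germline gene without combination library B.

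Genes of the Polycomb complexes changed in both directions. EZH2, the target of the drug, was at 84.7, 85.9 and 82.7 CPM with ipatasertib and 67.5, 77.5 and 78.7 CPM with the combination. The libraries did not overlap, as in 3578 of the 14571 tested genes, all lower in the combination. The log2 fold change of -0.18 ± 0.0762 (SE) did not pass by edgeR (adjusted p = 0.0563). AKT1, a target of ipatasertib, fell from 147 ± 8.63 to 119.9 ± 9.93 CPM (edgeR adjusted p = 0.00193). Of 12 PRC2 genes 1 rose and 2 fell, by small amounts: JARID2 rose (0.25), and the histone chaperone gene RBBP4 (-0.30) and C17orf96 (-0.36) fell. The shares of the PRC2 list, 8.33% and 16.7%, were below the 23.5% and 22.4% of all tested genes. With ipatasertib library A or combination library A left out, 2 PRC2 genes rose. Without a filter on low counts, EZH2 passed the test as well (log2 fold change -0.19) and 4 PRC2 genes fell. Of 20 PRC1 genes and H3K27 demethylases 4 rose and 5 fell, together 9 of 20 where 45.8% of all tested genes changed. The largest change was in BMI1, a core PRC1 subunit gene of low level, at 0.751 ± 0.0997 CPM with ipatasertib and 2.44 ± 0.217 CPM with the combination (log2 fold change 1.67 ± 0.282, SE, adjusted p = 4.90e-05 by edgeR). PCGF5 (0.74) and RNF2 (0.68) rose as well. Those that fell numbered 2 without combination library B or C, 3 without ipatasertib library A and 10 without the A library of every group.

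Markers of mammary lineage did not move as blocks. KRT5, the basal keratin, was at 1112, 1159 and 1243 CPM with ipatasertib and at 477, 419.6 and 419.9 CPM with the combination, without overlap (log2 fold change -1.42 ± 0.068, SE, adjusted p = 1.99e-13 by edgeR). Its partner KRT14 fell from 206 ± 14.3 to 83.8 ± 5.99 CPM. In the same basal list KRT15 rose from 164 ± 0.0592 to 323 ± 27.8 CPM and TP63, the basal master regulator, from 0.847 ± 0.237 to 2.51 ± 0.147 CPM. Over the list 10 genes rose and 5 fell of 25 (40% and 20%, against 23.5% and 22.4% of all tested genes). GATA3, the luminal master regulator, was at 129, 132 and 135 CPM with ipatasertib and at 192, 200.3 and 169.8 CPM with the combination, a 1.42-fold higher mean (log2 fold change 0.50 ± 0.0736, SE, adjusted p = 8.74e-06 by edgeR). The luminal factor FOXA1 (52.8 and 54 CPM) and ESR1 (1.56 and 1.44 CPM) did not pass. Luminal genes gave 11 higher and 4 lower of 26: the secretoglobin gene SCGB2A2 rose from 8.77 ± 1.3 to 37.3 ± 2.94 CPM, the prolactin receptor gene PRLR by 0.88 and the retinal dehydrogenase gene ALDH1A3 by 0.59 in log2 fold change. The luminal genes that fell numbered 2 without combination or ipatasertib library C. Milk and secretory genes gave 6 higher of 11 tested, of 22 listed, and 0 lower by edgeR, by DESeq2 or at an unadjusted p under 0.05; the phosphate transporter gene SLC34A2 (0.82) and the mucin gene MUC15 (0.55) rose. Of 22 tested genes of epidermal differentiation 12 rose and 4 fell: the barrier gene FLG rose from 0.977 ± 0.248 to 13.9 ± 1.8 CPM, the kallikrein gene KLK6 from 69.7 ± 2.48 to 175 ± 12.1 CPM and S100A7 from 64.1 ± 12.1 to 174 ± 19.3 CPM.

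Genes of mammary involution rose more often than they fell: 22 of 34 tested rose (64.7%) and 8 fell (23.5%), with a median log2 fold change of 0.37. Of all tested genes 23.5% rose and 22.4% fell, so the share of the list that fell was near that of all genes. Along the cytokine pathway, the ligand gene LIF did not pass (16.2 and 14.8 CPM, edgeR adjusted p = 0.486). The shared receptor subunit gene IL6ST stood at 105, 96 and 85.2 CPM with ipatasertib and at 162, 191 and 190.2 CPM with the combination (log2 fold change 0.92 ± 0.0852, SE, adjusted p = 1.09e-08 by edgeR). The oncostatin M receptor gene OSMR rose (0.52) and so did the kinase gene JAK1 (0.32). STAT3, the transcription factor below them, fell from 342 ± 16.6 to 282 ± 9.44 CPM. The cathepsin gene CTSL1 rose from 31.8 ± 1.4 to 91.1 ± 4.74 CPM, while the acute phase gene SAA1 fell from 22.9 ± 3.79 to 8.51 ± 1.37 CPM. BMF, the BH3-only effector, was at 25.3, 21.7 and 21.4 CPM with ipatasertib and 59, 54.7 and 60.1 CPM with the combination, a 2.54-fold higher mean (log2 fold change 1.35 ± 0.0867, SE, adjusted p = 2.81e-11 by edgeR). Among the 16 tested BCL-2 family genes 4 rose and 4 fell, 25% each, near the shares over all tested genes (23.5% and 22.4%). The median log2 fold change of the family was -0.14, and at an unadjusted p under 0.05 by edgeR 4 rose and 7 fell. Those that rose were BMF, HRK (1.03), PMAIP1 (0.79) and BCL2L11 (0.34). BAX, a pore-forming effector, fell (-0.32), and the survival gene MCL1 did not pass (453 and 457 CPM). Those that fell numbered 2 without combination library B or C and 7 without the A libraries.

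Targets of FOXO factors, which AKT holds back, moved up more often than down. Of 28 tested 17 rose (60.7%) and 3 fell (10.7%), against 23.5% and 22.4% of all tested genes. The median log2 fold change of the list was 0.22. Those that fell numbered 1 under most alternatives and 0 without combination library B. The pyruvate dehydrogenase kinase gene PDK4 was at 2.45, 2.55 and 2.17 CPM with ipatasertib and at 16.6, 19.4 and 18.6 CPM with the combination (log2 fold change 2.93 ± 0.127, SE, adjusted p = 2.53e-14 by edgeR). PIK3IP1, an inhibitor of PI3K, rose from 61.3 ± 3.07 to 139 ± 9.89 CPM and C10orf10 from 35.8 ± 3.24 to 94.4 ± 11.6 CPM. IRS2, an insulin receptor adaptor gene, rose from 84 ± 2.21 to 133 ± 12.2 CPM. The receptor gene ERBB3, also a FOXO target, was at 219 and 224 CPM and did not pass. Receptor tyrosine kinase genes gave 15 higher (45.5%) and 6 lower (18.2%) of 33, with PDGFRA (1.36), EPHB6 (1.18) and RET (2.55) among the rises. Insulin-like growth factor genes gave 4 higher (36.4%) and 1 lower (9.09%) of 11. IGF1R rose from 88.3 ± 5.25 to 117 ± 2.06 CPM and the binding protein gene IGFBP4 fell from 143 ± 5.2 to 111 ± 7.08 CPM. Without ipatasertib library A 2 of them fell.

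Output genes of the MAPK pathway went both ways, 8 higher and 7 lower of 24. Their shares were 33.3% and 29.2%, against 23.5% and 22.4% of all tested genes. IER3, an immediate early survival gene, was at 735, 743 and 787 CPM with ipatasertib and 362, 333 and 292 CPM with the combination (log2 fold change -1.20 ± 0.0747, SE, adjusted p = 1.61e-11 by edgeR). The feedback inhibitor gene SPRY4 fell from 16.8 ± 1.94 to 5.92 ± 0.121 CPM and the ETS factor gene ETV4 from 54.6 ± 3.83 to 26.8 ± 2.91 CPM. IER3, SPRY4 and ETV4 were at 356, 5.22 and 14.4 CPM with DMSO alone. JUN rose (0.77). Contractile and SRF target genes gave 5 higher and 3 lower of 21 (23.8% and 14.3%, against 23.5% and 22.4% of all tested genes): ANKRD1 rose from 36.1 ± 1.27 to 105 ± 7.04 CPM and the myosin kinase gene MYLK from 3.12 ± 0.541 to 8.31 ± 0.406 CPM, while the tropomyosin gene TPM1 fell (-0.56). Those that fell numbered 6 without a filter on low counts or without the A libraries, and 5 without combination library A.

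Growth genes fell together. MYC was at 101, 98.3 and 105 CPM with ipatasertib and at 31.6, 28.5 and 29.5 CPM with the combination, all 3 combination libraries far below all ipatasertib libraries (log2 fold change -1.76 ± 0.0738, SE, adjusted p = 1.43e-14 by edgeR). Of 28 tested genes on the list of MYC paralogs and ribosome production 25 fell and 1 rose, with a median log2 fold change of -0.51, where 22.4% of all tested genes fell. The gene that rose was MYCL1, a MYC paralog, at 0.571 ± 0.126 and 4.03 ± 0.805 CPM. NOLC1, a nucleolar phosphoprotein gene, was at 202, 204 and 202 CPM with ipatasertib and at 129.6, 127 and 129 CPM with the combination. NOP56, a core protein of small nucleolar particles, fell from 171 ± 11.7 to 108 ± 2.71 CPM.

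Genes of DNA replication fell almost without exception, and genes of mitosis did not. Of 37 replication genes 36 fell and 0 rose by edgeR, by DESeq2 or at an unadjusted p under 0.05, with a median log2 fold change of -0.45, and RRM1 was the one that did not pass (chosen after its value was seen). MCM3, a subunit of the replicative helicase, was at 257, 246 and 256 CPM with ipatasertib and at 167, 165 and 170.4 CPM with the combination (log2 fold change -0.60 ± 0.0613, SE, adjusted p = 5.02e-08 by edgeR). The cell cycle factor E2F1 fell from 49.2 ± 3.88 to 24.3 ± 3.14 CPM, the licensing factor gene CDC6 from 44.1 ± 0.957 to 27.3 ± 1.65 CPM and GINS2 fell by 0.64 on the log2 scale. Of 33 mitosis genes, in contrast, 9 rose, 1 fell and 23 did not pass, with a median of 0.12. The share that rose, 27.3%, was near the 23.5% of all tested genes. KIF20A, a mitotic kinesin, was at 215, 230.4 and 245 CPM with ipatasertib and at 300.4, 337 and 358 CPM with the combination. HMMR (0.41), DLGAP5 (0.42) and CENPE (0.42) rose by less, and the CENPE libraries spread from 65.0 to 99.0 CPM in the combination. Without combination library A 16 mitosis genes rose, and without the A library of every group 19. CDK inhibitor genes gave 6 higher of 8, and 0 lower by edgeR, by DESeq2 or at an unadjusted p under 0.05; 1 fell without combination or ipatasertib library A. CDKN1A, which encodes p21, was at 6.42, 4.79 and 8.6 CPM with ipatasertib and 27.7, 26.1 and 27.2 CPM with the combination, 4.09-fold higher in the mean. CDKN2B (0.81), CDKN1C (0.78) and CDKN3 (0.37) rose with it.

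Genes of energy metabolism fell in part, where 22.4% of all tested genes fell and 23.5% rose. Oxidative phosphorylation gave 17 lower (54.8%) and 1 higher (3.23%) of 31, with a median of -0.21. SDHA of complex II fell from 344 ± 4.48 to 236 ± 9.81 CPM and NDUFV1 of complex I fell by 0.61 on the log2 scale. Glycolysis gave 9 lower (42.9%) and 3 higher (14.3%) of 21. ENO1, enolase, was at 2127, 2144 and 2193 CPM with ipatasertib and at 1373, 1234 and 1368 CPM with the combination, and the regulatory kinase gene PFKFB3 rose (0.65). The amino acid and ATF4 list gave 13 lower (41.9%) and 6 higher (19.4%) of 31. SHMT2 of serine metabolism fell (-0.56), and the stress factor genes ATF3 (0.69) and DDIT3 (0.86) rose. Cholesterol synthesis genes gave 9 higher (37.5%) and 1 lower (4.17%) of 24. SC5DL, a late-stage sterol desaturase, was at 268, 281 and 259 CPM with ipatasertib and at 663, 794 and 723 CPM with the combination (log2 fold change 1.43 ± 0.0852, SE, adjusted p = 7.11e-12 by edgeR). STARD4 (1.48) and INSIG1 (0.68) rose as well. The cholesterol genes that fell numbered 5 without the A libraries, 4 without combination library A, and 0 without combination library B or C or ipatasertib library A or C. Fatty acid genes gave 7 higher (36.8%) and 3 lower (15.8%) of 19, with the elongase gene ELOVL6 higher (1.25) and the acetyl-CoA synthetase gene ACSS2 lower (-0.56).

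Lysosomal genes moved up in part: 18 of 35 were higher (51.4%) and 1 lower (2.86%), with a median of 0.23. GPNMB, a lysosomal membrane glycoprotein, was at 160.0, 165 and 152 CPM with ipatasertib and at 834, 882 and 878 CPM with the combination, one of the most abundant genes to change over 2-fold (log2 fold change 2.45 ± 0.0626, SE, adjusted p = 3.25e-18 by edgeR). CTSH (0.82) and the sterol carrier gene NPC2 (0.69) rose too. The lysosomal genes that fell numbered 2 without combination library A and 0 without combination library B. Genes induced by hypoxia gave 7 higher (41.2%) and 3 lower (17.6%) of 17. The adrenomedullin gene ADM rose from 5.65 ± 0.785 to 27.5 ± 1.1 CPM. Of 18 heat shock and chaperone genes 6 rose and 3 fell (33.3% and 16.7%, against 23.5% and 22.4% of all tested genes). The small heat shock protein gene HSPB8 went from 4 counts to 788, or 17.1 ± 0.282 CPM, and the mitochondrial chaperonin gene HSPD1 fell from 981 ± 34.2 to 633 ± 59.1 CPM. Without a filter 5 heat shock genes fell.

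Falls of 2-fold or more were few. By the naming rule the largest was IL22RA2, a decoy receptor for interleukin-22, at 7.12, 8.99 and 8.91 CPM with ipatasertib and at 0.764, 1.51 and 1.31 CPM with the combination (log2 fold change -2.84 ± 0.189, SE, adjusted p = 4.65e-11 by edgeR). The oxysterol-binding protein gene OSBP2 (-1.86), the elastase inhibitor gene PI3 (-1.78), MAGEB4 (-1.75), the carboxylesterase gene CES1 (-1.71) and the BMP antagonist gene SOSTDC1 (-1.55) came next beside MYC. SUSD2 (-1.55), KRT9 (-1.54), the mucin gene MUC5B (-1.51), SPRY4 and FLJ41200 (-1.50) closed the 12. The most abundant genes to change 2-fold were KRT5 and IER3, which fell, and GPNMB, SC5DL, GLUL, VOPP1, KLK5 and NEAT1, which rose. GLUL, glutamine synthetase, went from 466 ± 14.7 to 1024 ± 14.6 CPM, and NEAT1, a nuclear long noncoding RNA, from 285 ± 18.7 to 624 ± 116 CPM. Reads of genes with close copies, such as the HLA, keratin, KLK, MAGE, IFIT and HSP families, CTSL1 and FKBP9L, can be lost or shared between copies. No source used here gives the strand setting of the counting, so overlapping genes and those with an antisense partner are also uncertain.

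Many genes moved with tazemetostat both with and without ipatasertib, in comparisons that share no library. Against DMSO, tazemetostat changed 7001 of the 14571 tested genes (48.0%), 3609 higher and 3392 lower. On library totals without a scaling factor the split was 4571 and 2163. Of the 3419 genes that rose on top of ipatasertib 2398 (70.1%) also rose against DMSO, 66.4% of the genes that rose there, and of the 3261 that fell 1694 (51.9%) also fell, 49.9% of the falls there. For rises of 2-fold or more the shared genes numbered 987 (80.2% here, 80.7% there), and for falls of 2-fold or more 31 (28.7% and 36.9%). Genes nearly silent without tazemetostat passed the filter only through groups that had it, so part of the sharing of rises can be built in. Across the tested genes, which are not independent replicates, the 2 sets of log2 fold changes had a Pearson correlation of 0.912 and a Spearman correlation of 0.634. The Pearson value includes the large fitted values of genes with 0 or few counts, which are not bounds. Genes with opposite calls numbered 87 that rose here and fell against DMSO, and 75 the other way. HLA-B, PIK3IP1 and COL4A1 also rose without ipatasertib (log2 fold changes 1.82, 1.25 and 3.78), and their difference of effects did not pass (-0.16 ± 0.0964, -0.07 ± 0.121 and -0.23 ± 0.217, SE).

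**Figure D4:**
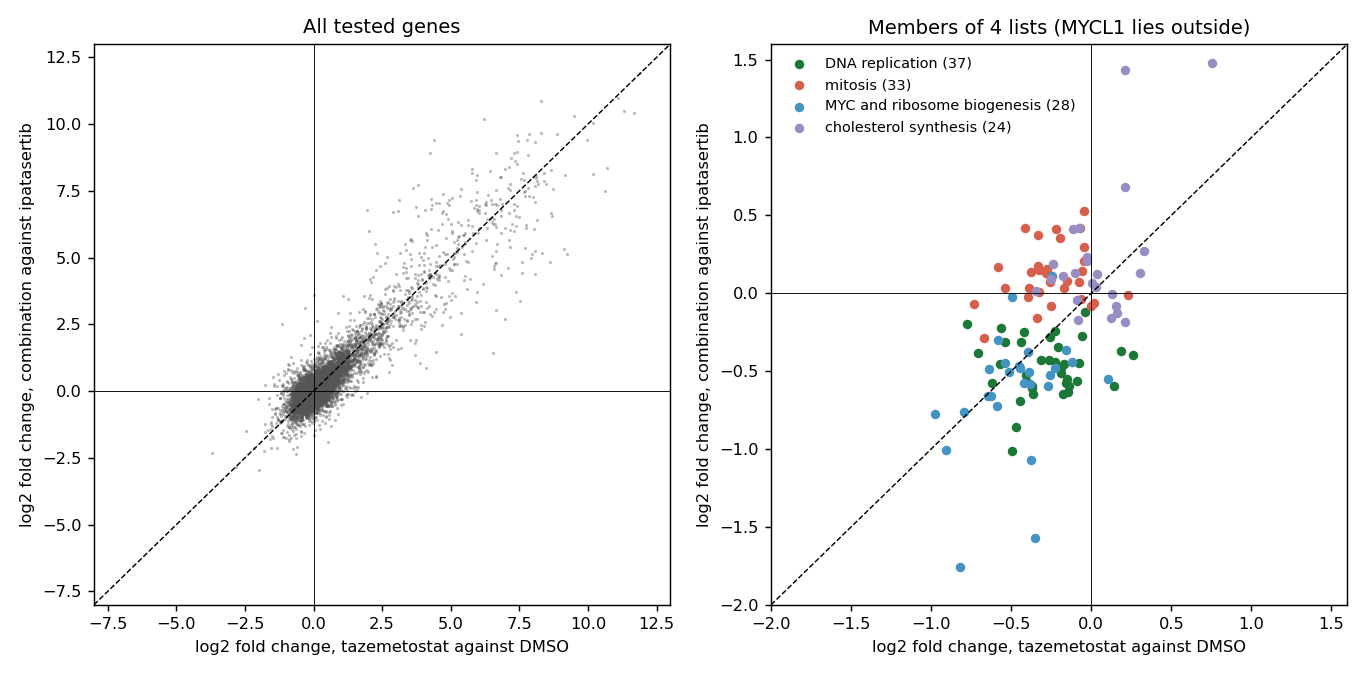
Log2 fold change with tazemetostat on top of ipatasertib (vertical axis) against that of tazemetostat over DMSO (horizontal axis), for all tested genes (left) and for members of 4 lists (right); the dashed line marks equal effects. Mitosis genes (red) lie mostly above the line and mostly near 0 on the vertical axis, and replication genes (green) lie mostly below it.

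A test of the difference itself, the effect on top of ipatasertib minus the effect over DMSO, passed for 1739 genes (11.9%), 901 with a positive and 838 with a negative difference; on library totals the split was 694 and 1369. That count moved with single libraries, from 674 without combination library B to 3681 without tazemetostat library A, and stood at 5452 without the A library of every group. It was 3231 without combination library A, and 676 to 1036 without ipatasertib library A or C, tazemetostat library B or C, or DMSO library B or C. The fall of MYC was larger on top of ipatasertib: it fell from 70 ± 2.79 to 39.6 ± 2.28 CPM without ipatasertib (log2 fold change -0.82), and the difference of the effects was -0.94 ± 0.101 (SE, adjusted p = 1.46e-05 by edgeR). KRT5 fell by 0.77 on the log2 scale without ipatasertib, with a difference of -0.65 ± 0.0943 (SE, adjusted p = 5.12e-04 by edgeR). GATA3 did not pass without ipatasertib (95.7 ± 8.09 CPM with DMSO and 93.6 ± 4.13 with tazemetostat), and the difference was 0.53 ± 0.104 (SE, adjusted p = 0.0035 by edgeR). IRS2 likewise stood at 28.6 and 28.3 CPM without ipatasertib, with a difference of 0.68, and IL6ST had a difference of 0.59. BMF went the other way, with a log2 fold change of 1.74 without ipatasertib and a difference of -0.39 ± 0.123 (SE, adjusted p = 0.0397 by edgeR), which no longer passed under 8 of 19 alternatives.

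By number of members, the lists with the most differing genes were those of mitosis and DNA replication. That ranking takes no account of list length, and 11.9% of all tested genes differed. Basal and myoepithelial genes gave 3 positive and 6 negative differences of 25, and CDK inhibitor genes 3 positive of 8. Of the 33 mitosis genes 20 had a positive difference and 0 a negative one by edgeR, by DESeq2 or at an unadjusted p under 0.05. Against DMSO 21 of them fell with tazemetostat, with a median log2 fold change of -0.27. These 20 became 14 without DMSO library C and 25 without combination library A. KIF20A, HMMR and CENPE had differences of 0.57, 0.63 and 0.84. Of the 37 replication genes 13 had a negative difference and 2 a positive one, and 24 had fallen and 2 risen with tazemetostat against DMSO. The 13 became 8 without combination library B and 21 without the A libraries. MCM3 and E2F1 had differences of -0.46 and -0.51. Of the 24 cholesterol genes 9 had a positive and 1 a negative difference, led by SC5DL (1.22 ± 0.119, SE, adjusted p = 3.35e-06 by edgeR), and the 9 stood between 7 and 12 with any 1 library left out. In the matrix, FN1 (0.90) and TGFBI (1.30) had positive differences, and NOV (-0.67) and LAMA4 (-0.64) negative ones. Matrix glycoproteins and proteoglycans gave 5 positive and 3 negative of 28, and collagens 1 and 1 of 25. Laminins and integrins gave 3 negative and 0 positive of 25, with 2 positive at an unadjusted p under 0.05 by edgeR.

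The 6 largest positive differences among genes reaching 5 CPM were in FKBP9L (2.05), BCAT1 (2.03), SEMA6A (2.01), NEXN (1.88), CLEC2B (1.63) and C2CD4A (1.59). The difference of CLEC2B, a lectin gene, did not pass without DMSO library B (adjusted p = 0.153). FKBP9L, a copy of the prolyl isomerase gene FKBP9, had 2.43, 2.94 and 2.77 CPM with DMSO, 3.5, 2.98 and 2.72 with ipatasertib, 73.4, 87.1 and 84.8 with tazemetostat and 430.2, 352 and 372 with the combination. NEXN, an actin-binding protein gene, fell with tazemetostat alone (2.81 ± 0.372 to 1.52 ± 0.297 CPM) and rose on top of ipatasertib (4 ± 0.148 to 7.91 ± 2.22 CPM). The 6 largest negative differences were in SNCAIP (-1.56), MGAT5 (-1.27), RHBDL3 (-1.27), GPR124 (-1.24), ATP2A3 (-1.21) and ALDH3A1 (-1.15). SNCAIP, which encodes a partner of alpha-synuclein, rose with tazemetostat alone (3.23 ± 0.348 to 6.88 ± 0.603 CPM) and fell on top of ipatasertib (3.41 ± 0.535 to 2.5 ± 0.264 CPM), a fall that 9 of 14 alternatives did not call. MGAT5 and RHBDL3 rose with tazemetostat alone (1.63 and 1.48) and did not pass on top of ipatasertib.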

How the data were processed

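The poly(A) RNA of 12 libraries was sequenced and deposited by the authors as 1 table of whole-number counts per gene and library, not normalised. Per the submitters' processing notes, STAR, SAMtools, HTSeq, DESeq2 and hg19 were used, with no versions or roles; no source used here gives the strand setting or the annotation. Closing lines of each table that name no gene, 36.0% to 39.5% of the counted total in the 6 libraries, were left out of totals and tests.

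Groups were taken from the labels. Genes were kept by edgeR's filterByExpr (minimum count 10), scaled by TMM and fitted over all 12 libraries with edgeR's robust quasi-likelihood model (R 4.3.3, edgeR 4.0.16, limma 3.58.1), with 8 residual degrees of freedom from the design. The contrasts were the combination against ipatasertib, tazemetostat against DMSO, and the first minus the second. P-values were adjusted by Benjamini-Hochberg over all 14571 genes, with a threshold of 0.05. Standard errors are the log2 fold change divided by the square root of the F statistic. A gene with 0 counts with ipatasertib is compared with a floor of 3 counts over the group, 0.0448 CPM; ratios from 1 to 3 counts carry exact 95% intervals, and both cover counting error only.

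The members and gene lists were chosen with earlier results of these data known. Named genes were a panel, the 12 largest rises and 12 largest falls without overlap that reach 5 CPM, the 8 most abundant genes without an ipatasertib count, the 8 most abundant genes called with a log2 fold change of at least 1, up to 4 members per list by adjusted p, and the 6 largest differences of effects in each direction. COL1A2, DCN, PTPRC and RRM1 were named outside these rules, after their values were seen. On simulated counts for 14326 tested genes, 32% of genes changed 1.2-fold, 80% of those changed 1.5-fold, 96% at 2-fold and 100% at 4-fold were recovered, with 11 false among 165 calls. The simulation changed 50 genes per fold, all above 1 CPM with ipatasertib, and left the others equal in both groups. It therefore does not cover genes under 1 CPM or a comparison in which 45.8% of genes changed. Each result was recomputed with DESeq2 (1.42.0), with RLE factors or plain library totals in edgeR, without a filter or asking 50 counts of 3 libraries, with a block for the letter, leaving out every library in turn or all A libraries, and in a fit of the 2 compared groups. Start sites came from RefSeq's table for GRCh38.p14, which is not the build of the files, so its coordinates were used for sequence only.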

Additional observations from a re-analysis of the deposited data

Results flagged for a closer look

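Among the 189 named genes that were tested, 67 had an effect of tazemetostat that differed with ipatasertib from the effect without it. The call was the test of that difference in edgeR at an adjusted p under 0.05, which 11.9% of all tested genes passed. Some genes were named for passing this same test and others for their change on top of ipatasertib. The share among named genes is therefore raised by the choice and is not a result. Values are the log2 fold change on top of ipatasertib minus that against DMSO, and 40 were positive and 27 negative.

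Positive differences of cell cycle genes were CENPE (0.84), CDKN3 (0.70), HMMR (0.63), KIF20A (0.57) and DLGAP5 (0.49). Sterol genes had SC5DL (1.22), STARD4 (0.72), SC4MOL (0.49) and INSIG1 (0.47). In matrix, adhesion and growth factor genes the values were TGFBI (1.30), INHBA (0.90), FN1 (0.90), CLDN1 (0.60), NCAM1 (0.52), DKK1 (0.49), COL12A1 (0.47), CTGF (0.33) and IGFBP4 (0.48). Differentiation and receptor genes gave TP63 (1.13), S100A7 (0.81), GATA3 (0.53), IL6ST (0.59), CSF1R (0.61), ROR1 (0.46) and IRS2 (0.68). Stress and signalling genes gave ANKRD1 (0.92), ADM (0.85), TNFSF15 (0.78), PMAIP1 (0.72), JUN (0.43) and DDIT4 (0.33). The remaining positive values were FKBP9L (2.05), BCAT1 (2.03), SEMA6A (2.01), NEXN (1.88), CLEC2B (1.63), C2CD4A (1.59), FLJ41200 (0.96), NEAT1 (0.64) and GLUL (0.30).

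Negative differences were found for MYC (-0.94) and the replication genes E2F1 (-0.51) and MCM3 (-0.46). Keratins gave KRT5 (-0.65), KRT9 (-0.56), KRT15 (-0.48) and KRT14 (-0.33). Metabolic genes gave ALDH3A1 (-1.15), CES1 (-0.63), OSBP2 (-0.95), ACSS2 (-0.45), NDUFV1 (-0.40), ENO1 (-0.34) and SDHA (-0.32). Signalling and cell death genes gave WNT5B (-1.11), SPRY4 (-0.76), NDRG1 (-0.46) and BMF (-0.39). Matrix genes gave NOV (-0.67) and LAMA4 (-0.64). The others were SNCAIP (-1.56), MGAT5 (-1.27), RHBDL3 (-1.27), GPR124 (-1.24), ATP2A3 (-1.21), MUC5B (-1.06) and SUSD2 (-0.38). Of the 67 calls 21 were lost under at least 1 alternative: COL12A1 and CTGF under 12 of 19, KRT14, NDRG1 and PMAIP1 under 9, BMF and CSF1R under 8, DDIT4, DKK1, DLGAP5 and NEAT1 under 7, GLUL and SDHA under 6, NDUFV1 under 5, KRT9 and SUSD2 under 3, SPRY4 under 2, CLEC2B, ENO1 and JUN under 1, and TP63 under 4 of 17. NEXN, CENPE, CDKN3 and HMMR were called lower with tazemetostat against DMSO and higher on top of ipatasertib, and SNCAIP, GPR124 and ATP2A3 the other way.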

How the results depend on the processing

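Between the combination and ipatasertib, 6680 genes changed, and 5374 to 7118 did with 1 library left out. Of these, 2959 to 3702 rose and 2318 to 3416 fell; 1241 to 1291 rose and 90 to 153 fell at least 2-fold. With a filter of 50 counts in 3 libraries the 2-fold rises numbered 643 and the falls 60, in a smaller set of tested genes. Tazemetostat against DMSO gave 5707 to 7400 genes with 1 library left out, 3130 to 3848 higher and 2475 to 3552 lower, and 2163 lower on library totals. The difference of effects was the least stable: with 1 library left out it passed for 674 to 3681 genes, 357 to 2017 positive and 262 to 1726 negative. It passed for 5452 without the A library of every group (2605 positive, 2847 negative), of which 1703 were among the 1739. Negative differences numbered 1369 on library totals and 1264 without a filter. The causes were not tested. The share of counted reads outside genes differed by 0.620 to 2.00 percentage points with 1 library left out.

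With the replicate letter as a block, 6086 genes changed between the combination and ipatasertib, 6076 of them among the 6680, and 1027 had a difference of effects (567 positive, 460 negative), 1025 of them among the 1739. Libraries of the same letter did not match throughout. The deviations of same-lettered combination and ipatasertib libraries correlated at -0.15 for A, 0.35 for B and -0.37 for C over 10978 genes, and only B matched its own letter best. For tazemetostat and DMSO the values were -0.06, -0.02 and 0.09, and only C matched its own letter best. Deviations from a mean of 3 libraries depend on each other, so these values cannot decide whether the letters pair the libraries.

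For the named genes, 2986 values under the alternatives stayed on the same side of the threshold, 14 lost the call and 6 gained it. No value that passed in either fit reversed. Changes of direction among values that did not pass were counted as kept, such as ESR1 (log2 fold change -0.417 to 0.163). Their differences of effects kept the call in 1143 cases and lost it in 127. List counts stayed within 1.5 times in 1137 cases, fell below in 61 and rose above in 34. With the filter of 50 counts, fewer members were tested and fewer rose: 23 developmental factors, 9 collagens, 7 HOX genes, 6 epithelial-mesenchymal genes and 2 class II genes. Scaling moved the median of all genes by less than 0.1 (-0.01 with TMM, -0.0042 with RLE, 0.02 on library totals). Combination libraries were the shallowest, which limits genes under 0.164 to 0.227 CPM.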
